A study of Mus musculus with 9 samples.

Results

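The integrated stress response and the unfolded protein response were followed here through 10 genes in CD11b+ cells of mouse bone marrow. The genes were chosen by name, Atf4, Ddit3, Trib3, Asns, Chac1, Xbp1, Hspa5, Hsp90b1, Dnajb9 and Herpud1, and all 10 were found among the 23337 genes counted. All 10 also passed the filter on low counts, which 12553 genes passed. Male C57BL/6 mice, 3 to 6 weeks old when obtained, were assigned to 3 groups of 3 and received tail vein injections on days 1, 3 and 5. The PBS group received 100 µl of PBS, and the EnzR exosome group received 100 µl holding 10 µg of protein of extracellular vesicles from an enzalutamide-resistant prostate cancer cell line. The EnzR exosome + HDL NP group received the same vesicles and, on days 0, 2 and 4, 100 µl of nanoparticles that mimic high-density lipoprotein, at 1 µM by the sample labels. The study's methods give another concentration of the nanoparticles, so the dose is uncertain. CD11b, the integrin alpha M chain, is carried by neutrophils, monocytes and some other myeloid cells, and the cells were taken with a positive selection kit, so each library is a mixture of these types. There was no group with the nanoparticles alone.

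Cells meet several kinds of stress with a shared step, the phosphorylation of the translation factor eIF2alpha, which slows protein synthesis while the transcription factor ATF4 is translated more. The unfolded protein response is the part that starts in the endoplasmic reticulum (ER), where the sensors PERK, IRE1 and ATF6 respond to unfolded protein, and it raises chaperones through XBP1 and ATF6. Granulocyte precursors fold large amounts of granule protein in the ER, and ATF4 protein and the splicing of Xbp1 are not measured by counts per gene.

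Depth differed strongly between libraries. Totals were 6006087, 16381679 and 15972757 counts in the PBS mice, 2575776, 18110561 and 8554487 in the EnzR exosome mice, and 15602936, 16611934 and 13231038 in the EnzR exosome + HDL NP mice, in the order of replicates 1, 2 and 3. The ribosomal RNA precursor Rn45s took 42.7% of the counts of EnzR exosome replicate 1, 20.3% of PBS replicate 1 and 14.2% of EnzR exosome replicate 3, and at most 2.87% in each of the other 6 libraries. These 3 libraries were also the 3 with the lowest totals, and EnzR exosome replicate 1 stands apart from the rest in many of the values below. Values are counts relative to the library total (CPM), with totals scaled by the trimmed mean of M-values (TMM), and at 3 counts, taken as the floor, they correspond to 1.65 CPM in EnzR exosome replicate 1 and at most 0.528 CPM in the others.

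Of the markers listed for CD11b+ myeloid cells, all 8 were detected, with Lyz2 the most abundant. Their summed level lay between 9138 CPM in EnzR exosome replicate 1 and 18880 CPM in EnzR exosome + HDL NP replicate 2. Lyz2 alone was at 3702 and 10930 CPM in these libraries. Itgam, which encodes CD11b, ran from 1389 CPM in PBS replicate 1 to 2006 CPM in EnzR exosome + HDL NP replicate 2. It was at 1458 CPM in EnzR exosome replicate 1.

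Levels of the 10 genes were set side by side per kilobase of exon. Averaged over the 9 libraries, Hspa5 stood highest at 110 CPM per kb, followed by Hsp90b1 at 95.7, Atf4 at 87.1 and Xbp1 at 53.0 CPM per kb. Herpud1 (35.5 CPM per kb), Dnajb9 (21.7), Asns (9.57), Chac1 (6.40) and Ddit3 (5.44) came next, and Trib3 was the lowest at 0.704 CPM per kb. Several neighbours in this order were not separated: Hspa5 was above Hsp90b1 in 8 of 9 libraries, Hsp90b1 above Atf4 in 5 of 9, and Chac1 above Ddit3 in 4 of 9. Atf4 was above Xbp1, Xbp1 above Herpud1, Dnajb9 above Asns, and Ddit3 above Trib3 in all 9 libraries, with ranges that did not overlap. Within a gene, Xbp1 varied least over the libraries, with a coefficient of variation of 12.4%, and Trib3 most, with 46.4%, against a median of 25.8% over all genes tested.

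**Figure D1:**
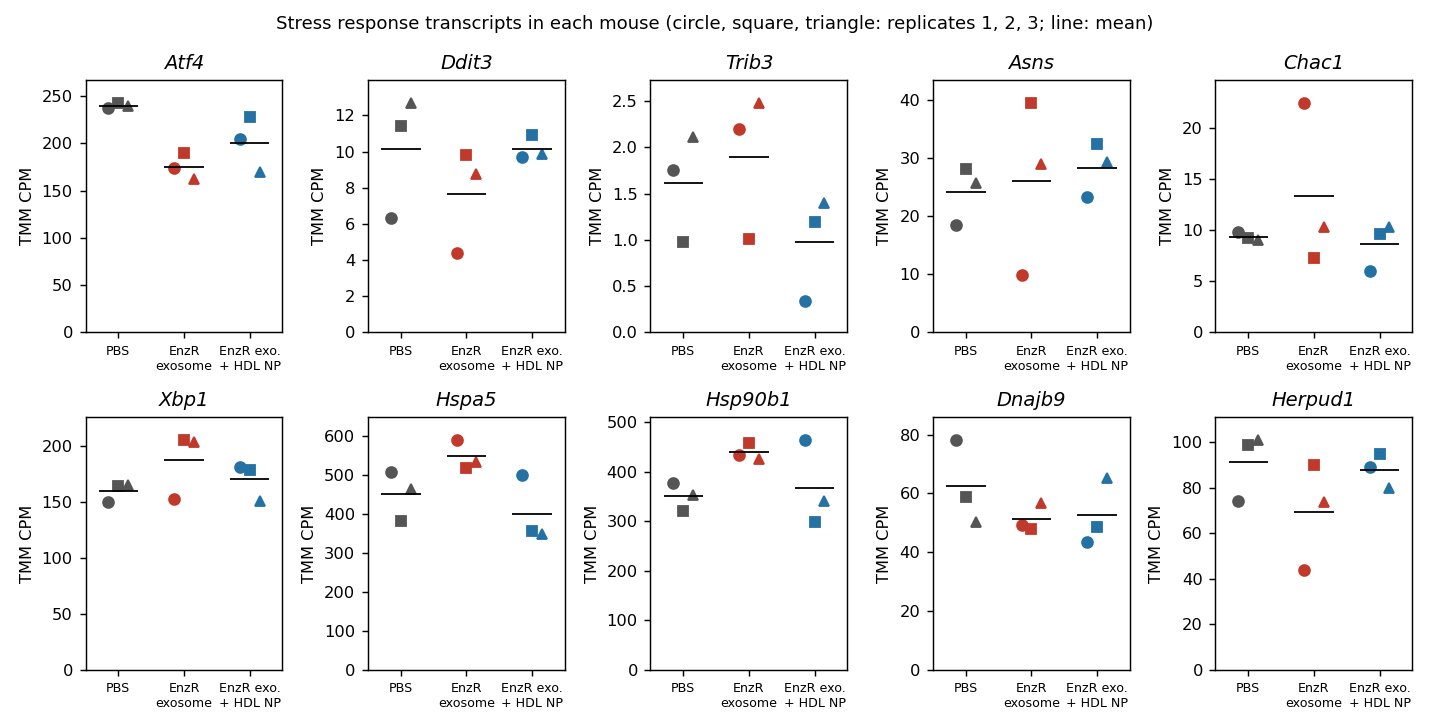
TMM CPM of the 10 genes in each mouse, with the 3 groups on the horizontal axis, 1 marker per mouse (circle, square and triangle for replicates 1, 2 and 3) and the group mean as a line. The 3 EnzR exosome mice lie below the 3 PBS mice for Atf4 and above them for Hspa5 and Hsp90b1.

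The promoters of Hspa5 and Hsp90b1 are shown because their transcripts moved together over the 9 libraries (Pearson's r of log2 CPM 0.852, Spearman's rho 0.733, and r 0.849 without EnzR exosome replicate 1), and those of Herpud1 and Asns as examples of the other 2 motifs. Herpud1 and Asns had an r of 0.836 (rho 0.383), but 0.327 without that library. Herpud1 moved more closely with Ddit3 (r 0.947, rho 0.933, and r 0.853 without that library), whose promoter held no match. A promoter was found for 10 of 10 genes in the RefSeq table (GRCm38.p6), each 300 bases around the transcription start. Both strands were searched for the ER stress response element, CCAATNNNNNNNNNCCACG, for its second form, written ATTGG, 1 unspecified base and CCACG, and for the core of the element bound by ATF4 with C/EBP partners, TGATGNAA, and the fixed letters of each match are in capitals. No match overlapped a match to another of the 3 motifs. The lines give Hspa5 at chr2:34771840-34772139 (plus strand), Hsp90b1 at chr10:86705395-86705694 (minus strand), Herpud1 at chr8:94386179-94386478 (plus strand) and Asns at chr6:7693160-7693459 (minus strand), each 5′ to 3′.
Hspa5: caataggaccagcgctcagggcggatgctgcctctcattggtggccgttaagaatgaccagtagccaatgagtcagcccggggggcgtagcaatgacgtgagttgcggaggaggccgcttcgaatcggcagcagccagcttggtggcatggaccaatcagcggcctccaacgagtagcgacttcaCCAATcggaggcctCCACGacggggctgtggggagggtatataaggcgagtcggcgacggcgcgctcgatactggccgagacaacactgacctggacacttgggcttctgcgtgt
Hsp90b1: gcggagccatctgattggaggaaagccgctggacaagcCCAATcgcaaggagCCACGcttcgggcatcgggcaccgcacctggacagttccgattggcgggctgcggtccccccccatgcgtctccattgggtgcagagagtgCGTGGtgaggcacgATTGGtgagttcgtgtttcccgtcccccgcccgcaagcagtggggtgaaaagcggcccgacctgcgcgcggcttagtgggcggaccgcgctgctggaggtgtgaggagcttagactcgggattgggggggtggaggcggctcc
Herpud1: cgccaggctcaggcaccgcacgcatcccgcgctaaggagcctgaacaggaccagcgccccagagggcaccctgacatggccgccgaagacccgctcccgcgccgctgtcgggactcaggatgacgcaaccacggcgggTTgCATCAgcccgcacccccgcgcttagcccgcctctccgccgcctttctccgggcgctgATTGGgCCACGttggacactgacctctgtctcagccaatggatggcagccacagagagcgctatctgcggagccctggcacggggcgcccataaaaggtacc
Asns: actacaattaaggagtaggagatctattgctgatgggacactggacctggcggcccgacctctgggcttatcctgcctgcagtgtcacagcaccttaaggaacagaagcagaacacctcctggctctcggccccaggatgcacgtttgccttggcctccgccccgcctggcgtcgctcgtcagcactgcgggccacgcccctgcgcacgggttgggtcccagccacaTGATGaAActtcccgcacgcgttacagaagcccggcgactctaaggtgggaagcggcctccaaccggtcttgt
The first element was present in Hspa5 (1 match) and Hsp90b1 (2 matches), and in 0.119% of the 32851 promoters of the same length. The second form was present in Herpud1, and in 0.0365% of promoters. The ATF4 element was present in Trib3, Asns, Chac1 and Herpud1, 4 of the 10 genes, and in 3.97% of promoters. Counted per gene, the 3 elements were present in 0.137%, 0.0444% and 4.51% of 27025 genes, in the same order. A match describes letters in this window only.

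The first comparison asked what the vesicles alone changed. In it, edgeR's quasi-likelihood test called 0 of 12553 genes at an adjusted p under 0.05 (0% of genes tested) and 0 of the 10 stress genes. At an unadjusted p under 0.05 it had 436 genes (3.47%), Atf4 the only 1 among the 10. DESeq2 called 8 of 14117 genes (0.0567%) and none of the 10. limma's voom with sample quality weights, which gives the libraries that stand apart less weight, called 1972 genes (15.7%) and 2 of the 10, Atf4 and Herpud1. The 3 EnzR exosome mice all lay above the 3 PBS mice for 2 of the 10 genes, against 3.43% of all genes tested, and all below for 1 of the 10, against 4.52%.

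In the comparison of EnzR exosome + HDL NP with PBS, edgeR again called 0 genes (0%) and 0 of the 10, with 268 genes (2.13%) and 0 of the 10 at an unadjusted p under 0.05. DESeq2 called 7 of 11598 genes (0.0604%) and voom with weights 8 (0.0637%), none of them among the 10. Of the 10, 0 lay wholly above PBS (6.96% of all genes) and 1, Atf4, wholly below (6.21%). The groups EnzR exosome + HDL NP and EnzR exosome differed in the nanoparticles and in the added injections on days 0, 2 and 4. They also differed in the share of counts on Rn45s, and these differences cannot be told apart. Between them edgeR called 0 genes (0%) and 0 of the 10. At an unadjusted p under 0.05 it had 1325 genes (10.6%) and 1 of the 10, Hspa5. DESeq2 called 1 of 18794 genes (0.00532%) and voom with weights 639 (5.09%), none among the 10. Of the 10, 0 lay wholly above the EnzR exosome group (8.99% of all genes) and 1, Hspa5, wholly below (8.58%). The 3 comparisons share groups, so their values are not independent. With 3 mice against 3, the smallest p of a two-sided exact permutation test is 0.10.

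**Figure D2:**
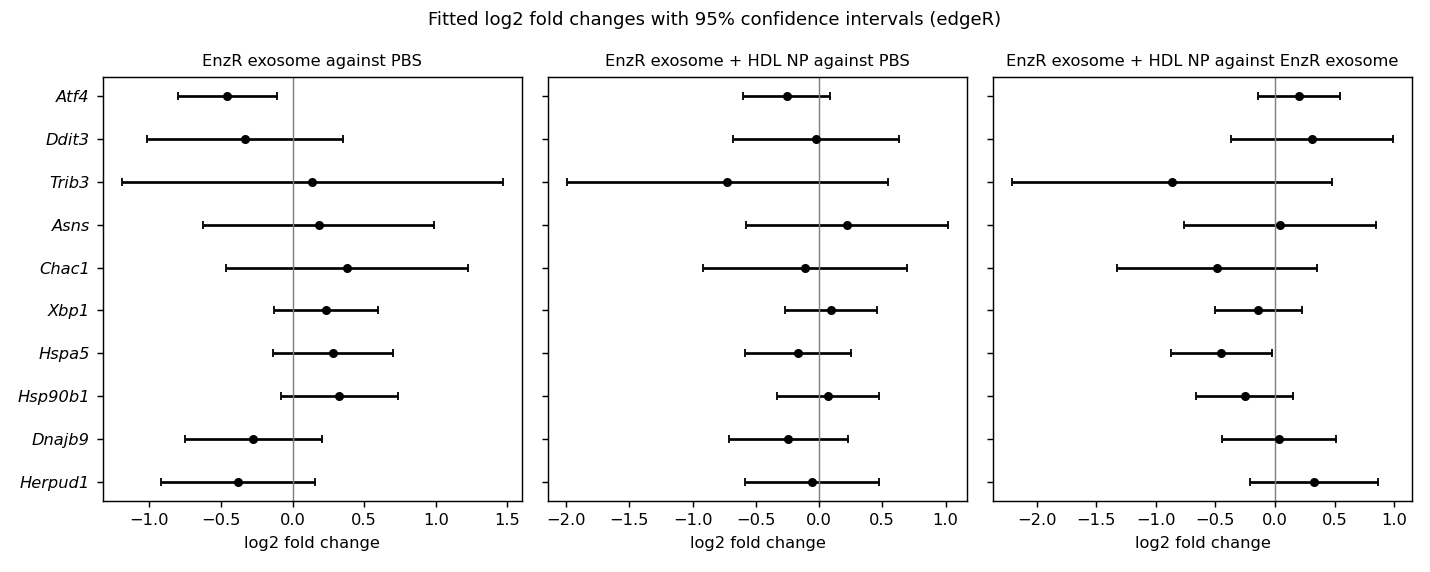
Log2 fold changes of the 10 genes from edgeR in the 3 comparisons (horizontal axis), with 95% confidence intervals as bars. The interval leaves 0 for Atf4 in EnzR exosome against PBS and for Hspa5 in EnzR exosome + HDL NP against EnzR exosome, before adjustment over all genes.

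Atf4 encodes the transcription factor at the centre of the integrated stress response. Its level was 238, 243 and 239 CPM in the PBS mice, 173, 189 and 162 CPM in the EnzR exosome mice, and 204, 228 and 170 CPM in the EnzR exosome + HDL NP mice. Both treated groups lay below all 3 PBS mice, and they overlapped each other. The PBS mice were close together, 240 ± 2.69 CPM (SD, n = 3), while the EnzR exosome + HDL NP mice spread over 201 ± 29.5 CPM (SD, n = 3). The log2 fold change of EnzR exosome against PBS was -0.46 (standard error 0.16, 95% confidence interval -0.80 to -0.11, adjusted p = 0.928 by edgeR; two-sided exact permutation test, p = 0.10). With voom and weights the adjusted p was 0.0158, which is also the lowest among the settings tried, the highest being 1. For EnzR exosome + HDL NP it was -0.26 against PBS (standard error 0.16, adjusted p = 1 by edgeR) and 0.20 against EnzR exosome (standard error 0.16, adjusted p = 0.569 by edgeR).

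Ddit3 encodes CHOP, a C/EBP family factor induced downstream of ATF4. It was measured at 6.34, 11.4 and 12.7 CPM after PBS, at 4.39, 9.79 and 8.75 CPM after EnzR exosomes, and at 9.68, 10.9 and 9.85 CPM after EnzR exosomes with HDL NPs. The lowest values were those of PBS replicate 1 and EnzR exosome replicate 1, which have the most Rn45s, and all 3 groups overlapped. The log2 fold changes were -0.33 in EnzR exosome against PBS, -0.02 in EnzR exosome + HDL NP against PBS and 0.31 between the treated groups, and the adjusted p by edgeR was at least 0.647.

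Trib3, a pseudokinase that is a target of ATF4 and CHOP and limits them, was the least abundant of the 10, with 4 counts in EnzR exosome replicate 1, 6 in EnzR exosome + HDL NP replicate 1 and 10 to 37 in the other libraries, and values from 0.338 CPM in EnzR exosome + HDL NP replicate 1 to 2.48 CPM in EnzR exosome replicate 3. Its confidence intervals were the widest of the 10, from -1.20 to 1.47 in EnzR exosome against PBS and from -2.21 to 0.48 between the treated groups, and they held 0 in all 3 comparisons. Chac1 encodes an enzyme that degrades glutathione and is induced by ATF4. It stood at 9.86, 9.20 and 9.10 CPM in the PBS mice, 22.5, 7.29 and 10.3 CPM in the EnzR exosome mice and 6.02, 9.66 and 10.3 CPM in the EnzR exosome + HDL NP mice. The highest value was that of EnzR exosome replicate 1 alone. The log2 fold change against PBS was 0.38 with this library (standard error 0.38, adjusted p = 0.928 by edgeR) and -0.10 without it.

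Asns encodes asparagine synthetase, a target of ATF4 when amino acids are scarce. It was measured at 18.5, 28.1 and 25.7 CPM after PBS, 9.88, 39.5 and 29.0 CPM after EnzR exosomes, and 23.3, 32.3 and 29.3 CPM with HDL NPs. EnzR exosome replicates 1 and 2 held the lowest and the highest of the 9 values. The log2 fold changes were 0.18 in EnzR exosome against PBS, 0.22 in EnzR exosome + HDL NP against PBS and 0.04 between the treated groups. The last was -0.29 without EnzR exosome replicate 1, and the first was -0.18 without EnzR exosome replicate 2.

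Xbp1 encodes the transcription factor that IRE1 activates by splicing. It was at 150, 164 and 165 CPM in the PBS mice, 153, 205 and 203 CPM in the EnzR exosome mice and 181, 178 and 151 CPM in the EnzR exosome + HDL NP mice. EnzR exosome replicates 2 and 3 were above all other mice, while replicate 1 lay among the PBS values. The log2 fold change of EnzR exosome against PBS was 0.23 (standard error 0.16, adjusted p = 0.928 by edgeR).

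Hspa5 encodes BiP, the main HSP70 chaperone of the ER and a standard readout of the unfolded protein response. Its level was 507, 383 and 464 CPM in the PBS mice, 590, 519 and 534 CPM in the EnzR exosome mice, and 500, 355 and 348 CPM in the EnzR exosome + HDL NP mice. The EnzR exosome mice were above all mice of both other groups, which overlapped each other. Against PBS the EnzR exosome group had a log2 fold change of 0.28 (standard error 0.19, 95% confidence interval -0.14 to 0.70, adjusted p = 0.928 by edgeR; two-sided exact permutation test, p = 0.10). Against EnzR exosome, the EnzR exosome + HDL NP group had a log2 fold change of -0.45 (standard error 0.19, 95% confidence interval -0.87 to -0.03, adjusted p = 0.461 by edgeR; two-sided exact permutation test, p = 0.10). Neither difference passed the test. Over the settings tried the first ran from 0.09 to 0.37 and the second from -0.65 to -0.19.

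Hsp90b1 encodes GRP94, the HSP90 chaperone of the ER, which folds integrins and Toll-like receptors in myeloid cells. It was at 378, 320 and 354 CPM after PBS, 434, 459 and 425 CPM after EnzR exosomes, and 464, 298 and 342 CPM with HDL NPs. The EnzR exosome mice were above the 3 PBS mice, and the EnzR exosome + HDL NP group spanned both, with replicate 1 the highest of all 9 libraries. The log2 fold change was 0.33 in EnzR exosome against PBS (standard error 0.18, adjusted p = 0.928 by edgeR), 0.07 in EnzR exosome + HDL NP against PBS, and -0.25 between the treated groups. Without EnzR exosome + HDL NP replicate 1 the second became -0.12. Over the settings tried the third ran from -0.47 to -0.006.

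Dnajb9 encodes ERdj4, a cochaperone of BiP, and Herpud1 encodes HERP, a membrane protein of ER-associated degradation. Dnajb9 was at 78.2, 58.7 and 50.3 CPM after PBS, 49.4, 47.8 and 56.8 CPM after EnzR exosomes and 43.6, 48.6 and 65.4 CPM with HDL NPs, and the 3 groups overlapped. Herpud1 was at 74.1, 98.9 and 101 CPM after PBS, 43.9, 89.9 and 73.8 CPM after EnzR exosomes and 89.3, 94.95 and 79.6 CPM with HDL NPs. The 3 lowest Herpud1 values were those of the 3 libraries with over 10% of counts on Rn45s. The log2 fold change of Herpud1 in EnzR exosome against PBS was -0.38 (standard error 0.24, adjusted p = 0.928 by edgeR, against 0.0417 by voom with weights), and the groups overlapped. Among the settings tried the lowest adjusted p of Herpud1 was 0.0416 and the highest 1. For Dnajb9 the log2 fold change in this comparison was -0.28 (standard error 0.22, adjusted p = 0.928 by edgeR). With voom and weights it was 0.00 (adjusted p = 0.984), and over the settings tried it ran from -0.43 to 0.00.

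Across the 9 libraries the 10 genes did not move as 1 block. Pearson's r of log2 CPM, given as a description over libraries that share groups and differ in depth, was 0.947 for Ddit3 and Herpud1, 0.852 for Hspa5 and Hsp90b1, 0.848 for Ddit3 and Asns, and -0.850 for Chac1 and Herpud1 (n = 9). Without EnzR exosome replicate 1 these became 0.853, 0.849, 0.524 and -0.335 (n = 8). Among the first 4 pairs, Hspa5 and Hsp90b1 thus depended least on that library. Atf4 had an r of 0.384 with Ddit3, 0.115 with Asns, -0.221 with Trib3 and -0.340 with Chac1, and -0.311 with Hspa5. Without that library the r of Atf4 was 0.166 with Ddit3, -0.397 with Asns, -0.116 with Trib3, -0.0531 with Chac1 and -0.164 with Hspa5.

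**Figure D3:**
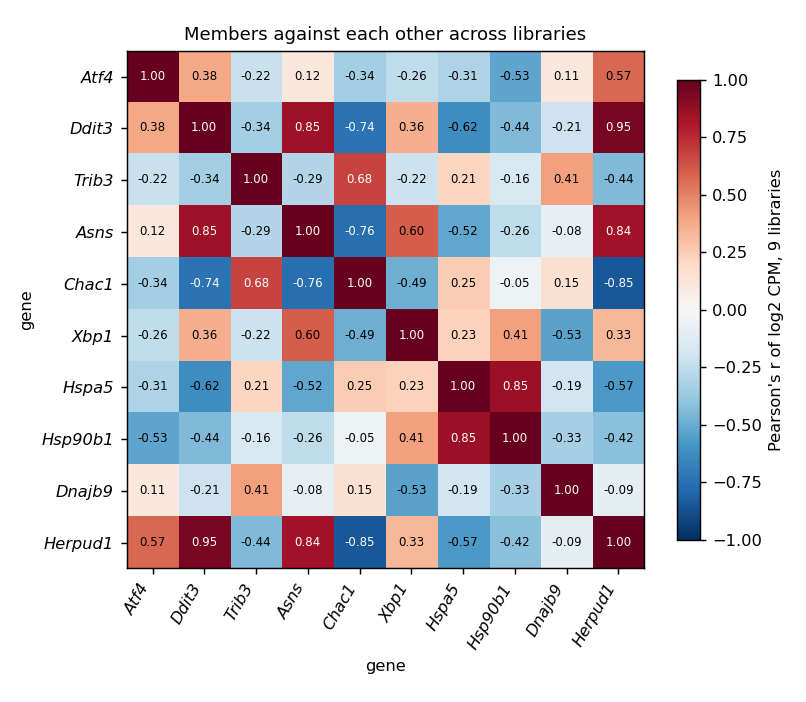
Pearson's r of log2 CPM between each pair of the 10 genes over the 9 libraries, as color and number. Ddit3, Asns and Herpud1 are close to each other, as are Hspa5 and Hsp90b1, and Chac1 runs opposite to Herpud1 with an r of -0.850.

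The genes whose pattern over the 9 libraries was most like that of Hspa5 were Ccbl2 (r = 0.979), BC005764 (0.973), P4hb (0.971), Rpn1 (0.969) and Pdia6 (0.955). The last 3 belong to the lists of ER genes used below. For Ddit3 they were Diablo (r = 0.984), Fam40a, Mrap, Cebpz and Txnip, for Asns Hmgn2 (r = 0.987), Treml2, Atxn10 and Vav1, and for Xbp1 Emg1 (r = 0.917), H2-K1, Bend4 and Psmc5. Without EnzR exosome replicate 1 the genes named for Ddit3 ranked from 14 (Mrap) to 37 (Txnip). Those for Xbp1 ranked from 11 (Emg1) to 28 (Psmc5), for Asns from 1 (Hmgn2) to 13 (Vav1), and for Hspa5 from 1 (Ccbl2) to 11 (Rpn1). None of the genes named here for Ddit3, Asns and Xbp1 is in the pathway lists.

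The share of counts on Rn45s and the summed level of early granulocyte markers moved with several of these values. Herpud1, Ddit3 and Asns had an r of -0.959, -0.955 and -0.891 with the share of counts on Rn45s (n = 9), with a Spearman's rho of -0.717, -0.617 and -0.567, and r was -0.821, -0.872 and -0.584 without EnzR exosome replicate 1 (n = 8). Chac1 had an r of 0.864 (rho 0.767), and 0.443 without that library, and Hspa5 had 0.629 (rho 0.5), and 0.471 without it. Dnajb9 had 0.177 (rho 0.65), and 0.738 without it, and Trib3 had 0.531 (rho 0.683), and 0.526 without it. Hspa5 had an r of 0.929 (Spearman's rho 0.917) with the summed level of early granulocyte markers, and 0.941 without that library, and Hsp90b1 had 0.764 (rho 0.683) and 0.741. Atf4 had -0.361 with Rn45s (rho -0.3), and -0.0978 without that library. With the early granulocyte sum Atf4 had -0.19 (rho -0.4), and -0.0919 without it.

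Early granulocytes fill the azurophil granules, whose proteins pass through the ER. All 10 of the 10 early granulocyte markers listed were detected, none at 0, and Mpo, which encodes myeloperoxidase, was the most abundant. Their summed level was 2495, 2110 and 2358 CPM in the PBS mice, 2679, 2683 and 2821 CPM in the EnzR exosome mice, and 2299, 1494 and 1537 CPM in the EnzR exosome + HDL NP mice. The sum was highest in the 3 EnzR exosome mice, as Hspa5 was, but 0 of the 10 markers taken singly lay wholly higher in EnzR exosome than in PBS (3.43% of all genes did). Mpo itself was at 1209, 838 and 1004 CPM after PBS, 1673, 1065 and 1189 CPM after EnzR exosomes and 1048, 439 and 536 CPM with HDL NPs. Between PBS and EnzR exosome mice of equal replicate number, Mpo, Prss57, Nkg7 and Gfi1 were higher in EnzR exosome each time. The other markers went both ways. The labels state no such pairing, and the share of all genes that were higher each time was not counted. In EnzR exosome against PBS the log2 fold change was above 0 for 8 of the 10, from 0.04 (Elane) to 0.66 (Prss57), and below 0 for Ctsg (-0.14) and Cebpe (-0.24). By edgeR 0 of the 10 passed the test in any comparison, while voom with weights called 3 of the 10 in EnzR exosome against PBS (Prtn3, Prss57 and Nkg7, all higher), 0 in EnzR exosome + HDL NP against PBS and 5 between the treated groups, where it called 15.7%, 0.0637% and 5.09% of all genes. Of the 10, 4 lay wholly lower in EnzR exosome + HDL NP than in EnzR exosome, against 8.58% of all genes. In such bulk samples fewer cells of a type and less RNA per cell cannot be told apart, and the part of early granulocytes or of library quality in the values of the stress genes was not tested.

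**Figure D4:**
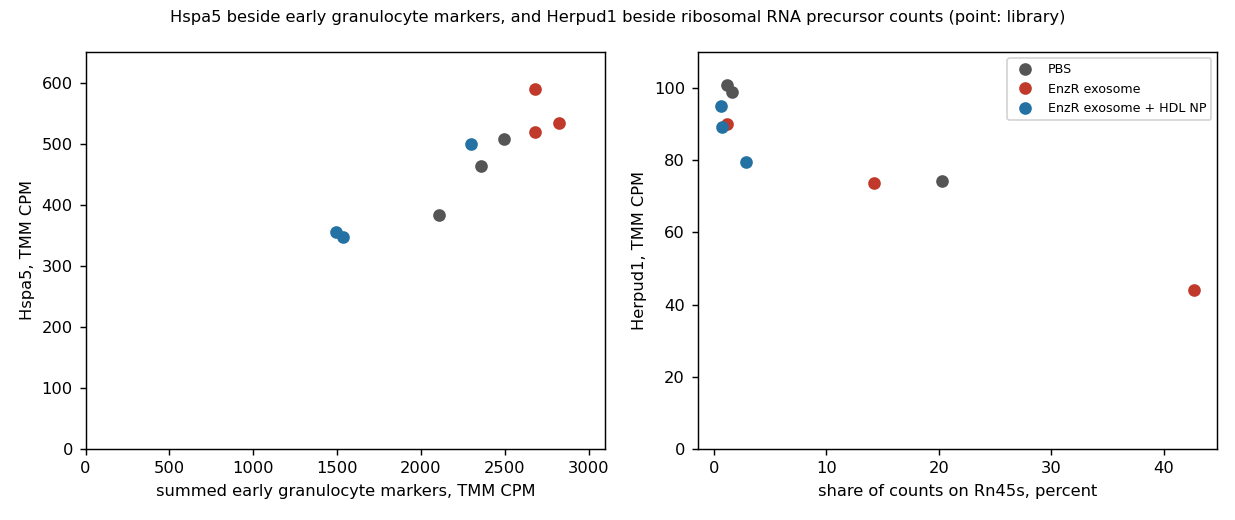
Left, Hspa5 against the summed early granulocyte markers, and right, Herpud1 against the percent of counts on Rn45s, both genes in TMM CPM, with 1 point per library colored by group. Hspa5 is highest in the 3 EnzR exosome libraries, where the marker sum is 2679 to 2821 CPM, and Herpud1 is lowest, at 43.9 CPM, where Rn45s takes 42.7% of counts.

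Plasma cells are known for a strong unfolded protein response. Of 10 plasma cell markers listed, 8 were in the counts, with Igj the most abundant. Tnfrsf17 was at 0 in 8 of the 9 libraries, with 1 count in EnzR exosome + HDL NP replicate 1, and 2010001M09Rik (Mzb1) and Prdm1 were at 0 in EnzR exosome replicate 1. Their summed level was 26.1, 14.2 and 18.8 CPM in the PBS mice, 29.6, 8.89 and 13.1 CPM in the EnzR exosome mice, and 15.5, 10.4 and 8.73 CPM in the EnzR exosome + HDL NP mice. The sum and Hspa5 had the same highest and lowest libraries, EnzR exosome replicate 1 and EnzR exosome + HDL NP replicate 3, but EnzR exosome replicate 2 had the second lowest sum and the third highest Hspa5. In EnzR exosome against PBS the 7 plasma cell markers tested had log2 fold changes of -1.96 (2010001M09Rik), -1.77 (Igj), -0.45 (Sdc1), -0.34 (Pou2af1), -0.09 (Prdm1), 0.51 (Tnfrsf13b) and 0.51 (Fkbp11). Only 2010001M09Rik had groups that did not overlap, wholly lower in EnzR exosome as 4.52% of all genes were. By edgeR none of the 7 was called, and voom with weights called 2010001M09Rik and Igj (15.7% of all genes). The part of plasma cells in the values of Hspa5 was not tested. The later neutrophil markers, 9 of 10 in the counts and led by S100a9, summed to 30540 CPM in EnzR exosome replicate 1, the lowest library, and to 145600 CPM in EnzR exosome + HDL NP replicate 2, the highest.

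The summed level of the other lists ranged over the 9 libraries as follows. B lineage markers (10 of 10 in the counts, led by Cd79b) ran from 10.1 to 33.4 CPM, and T and NK cell markers (9 of 10, led by Gzma) from 22.8 to 43.8 CPM. Monocyte markers (10 of 10, led by Fn1) ran from 2079 CPM in EnzR exosome replicate 1 to 4027 CPM in PBS replicate 1, and marrow macrophage markers (10 of 10, led by Vcam1) from 624 to 1452 CPM. In EnzR exosome against PBS, where voom with weights called Atf4 and Herpud1, it also called 7 of 10 macrophage and 2 of 10 monocyte markers (15.7% of all genes). It called 3 of 8 CD11b+ myeloid, 2 of 10 eosinophil and basophil, 2 of 9 B lineage and 2 of 6 erythroid markers tested. It called 1 of 9 later neutrophil, 1 of 6 T and NK cell, 1 of 6 plasmacytoid dendritic cell and 0 of 10 megakaryocyte markers. In that comparison 2 macrophage, 3 monocyte, 3 eosinophil and basophil, 1 B lineage and 1 erythroid marker lay wholly lower (4.52% of all genes). Wholly higher was 1 plasmacytoid dendritic cell marker, Bst2, with a log2 fold change of 0.73 (3.43% of all genes lay wholly higher). Of the others tested in that list, Tcf4 had 0.24, while Runx2 (-0.16), Ccr9 (-0.20), Ly6d (-1.16) and Siglech (-1.90) were below 0. By edgeR none of these was called, and their part in the values of the stress genes was not tested. Plasmacytoid dendritic cell markers (10 of 10, led by Runx2, which other cells also express) ran from 68.4 to 128 CPM, and eosinophil and basophil markers (10 of 10, led by Prg2) from 1578 to 3737 CPM. Megakaryocyte markers (10 of 10, led by Itga2b) ran from 34.9 to 141 CPM. Erythroid markers (10 of 12, led by Beta-s) ran from 54.5 to 355 CPM, with Hba-a1, Hba-a2, Hbb-b1 and Hbb-b2 at 0 in all 9 libraries.

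Other genes of the pathway were taken from lists of 124 symbols by role, of which 122 were in the counts and 115 were tested. None of the 115 passed the test by edgeR or DESeq2 in any comparison. At an unadjusted p under 0.05 edgeR had 6 higher and 1 lower in EnzR exosome against PBS, 1 higher and 0 lower in EnzR exosome + HDL NP against PBS, and 1 higher and 25 lower between the treated groups, beside 3.47%, 2.13% and 10.6% of all genes in either direction. voom with weights called 29 of the 115 in the first comparison (15.7% of all genes), 0 in the second (0.0637%) and 15 in the third (5.09%). Groups did not overlap for 12 higher and 4 lower genes of the 115 in EnzR exosome against PBS, where 3.43% and 4.52% of all genes did so. In EnzR exosome + HDL NP against PBS they were 4 higher and 10 lower (6.96% and 6.21% of all genes), and between the treated groups 4 higher and 34 lower (8.99% and 8.58%).

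ER chaperones and folding enzymes are the closest companions of Hspa5. In EnzR exosome against PBS, 17 of 21 had a log2 fold change above 0, with a median of 0.34 against -0.03 over all genes tested. Between the treated groups, 18 of 21 were below 0, with a median of -0.34 against 0.03, and in EnzR exosome + HDL NP against PBS the median was -0.09 against -0.01. Without EnzR exosome replicate 1, 19 of 21 were above 0 in the first comparison (median 0.29) and 20 of 21 below 0 between the treated groups (median -0.34). Without the 3 libraries with over 10% of counts on Rn45s the medians were 0.36 and -0.40, but both then rest on EnzR exosome replicate 2 alone, assumed to vary like the others, and are not separate observations. In EnzR exosome + HDL NP against PBS the median was 0.00 without these 3 libraries and without the 2 with the lowest totals, with 10 of 21 above 0 in each. The summed level of the 21 genes was 2617, 2079 and 2254 CPM in the PBS mice, 2633, 2866 and 2808 CPM in the EnzR exosome mice and 2644, 1905 and 1996 CPM in the EnzR exosome + HDL NP mice. Like the early granulocyte sum above, it was lowest in EnzR exosome + HDL NP replicates 2 and 3, and the part of early granulocytes or of library quality in the values of this list was not tested.

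P4hb, a protein disulfide isomerase, was at 509, 380 and 409 CPM in the PBS mice, 583, 518 and 539 CPM in the EnzR exosome mice and 444, 338 and 308 CPM in the EnzR exosome + HDL NP mice. As with Hspa5, the EnzR exosome mice were above all others. Dnajc3, the ER cochaperone p58IPK, was at 133, 127 and 136 CPM, then 199, 155 and 165 CPM, then 144, 130 and 134 CPM in the same order of groups, also with the EnzR exosome mice above all others. Its log2 fold change in EnzR exosome against PBS was 0.39 (standard error 0.15, adjusted p = 0.928 by edgeR). Creld2, an ER stress-inducible disulfide isomerase, had 0.57 in that comparison and -0.63 between the treated groups, and Txndc11, a thioredoxin-domain protein, had 0.39 in the first.

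Fkbp2, a prolyl isomerase of the ER, had the lowest log2 fold change between the treated groups among pathway genes whose groups did not overlap, -1.70 (standard error 0.48, adjusted p = 0.461 by edgeR, against 0.0468 by voom with weights). It was at 18.7, 7.71 and 7.44 CPM in the PBS mice, 43.9, 11.5 and 26.6 CPM in the EnzR exosome mice and 7.82, 7.93 and 8.31 CPM in the EnzR exosome + HDL NP mice. Its 3 highest values were those of the 3 libraries with over 10% of counts on Rn45s. Kdelr2, a receptor that returns ER proteins from the Golgi (-1.19 between the treated groups), the factor Atf5 (-1.69) and the amino acid transporter Slc7a5 (-1.24) also had their 3 highest values in these libraries.

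**Figure D5:**
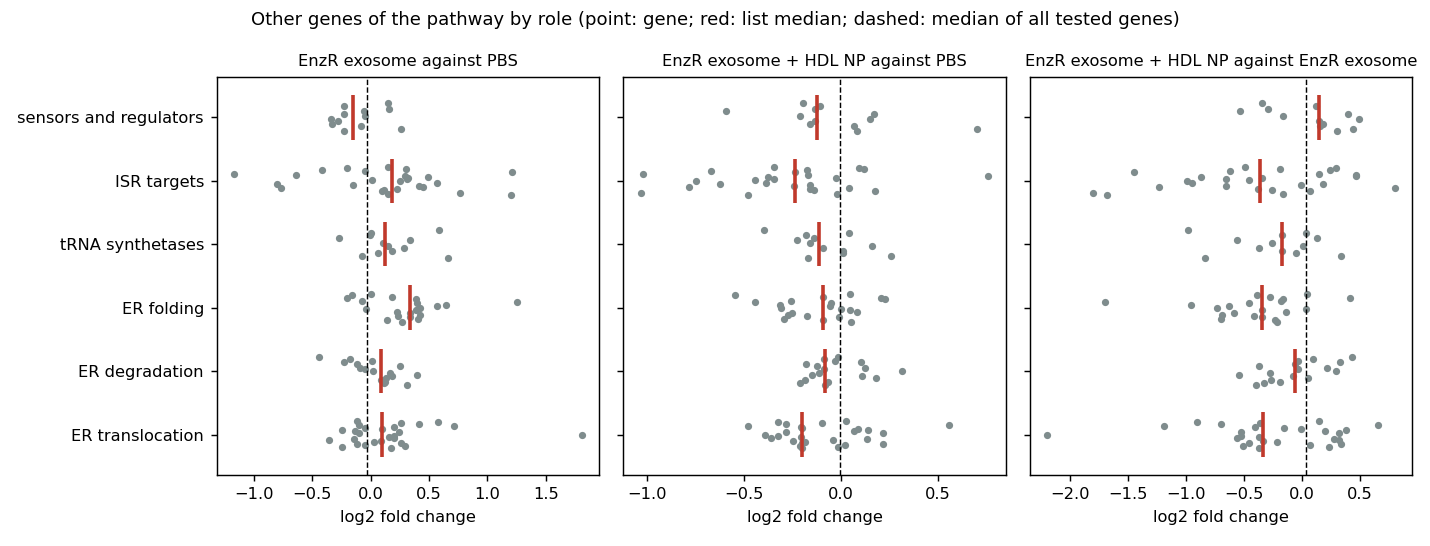
Log2 fold changes (horizontal axis) of the other genes of the pathway, 1 point per gene, in 6 lists by role and 3 comparisons, with the list median in red and the median of all genes tested dashed. The ER folding list has a median of 0.34 in EnzR exosome against PBS and -0.34 between the treated groups.

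Of the partners and targets of ATF4 and CHOP, 18 of 26 were above 0 in EnzR exosome against PBS, with a median of 0.19. The count was 12 (median -0.02) without EnzR exosome replicate 1, 16 (0.21) without the 2 libraries with the lowest totals and 15 (0.03) without the 3 with over 10% of counts on Rn45s. Between the treated groups 18 of 26 were below 0 (median -0.36), and in the same order 18 (-0.29), 17 (-0.29) and 16 (-0.14) were. In both comparisons the last value rests on EnzR exosome replicate 2 alone in its group. In EnzR exosome + HDL NP against PBS 21 of 26 were below 0 (median -0.24), and with the same libraries left out 21 (-0.24), 19 (-0.12) and 19 (-0.12) were. Tnfrsf10b, a death receptor and CHOP target, had the highest log2 fold change in EnzR exosome against PBS among genes whose groups did not overlap, 1.21, and -1.45 between the treated groups, but it rested on 2 to 19 counts per library. Bcl2l11, which encodes the proapoptotic protein BIM, and Gpt2, an alanine aminotransferase, had -0.41 and -0.63 in EnzR exosome against PBS. Slc7a11, the cystine transporter, was at 34.0, 86.1 and 93.0 CPM after PBS, 28.0, 57.8 and 37.8 CPM after EnzR exosomes and 67.5, 84.3 and 68.0 CPM with HDL NPs, a log2 fold change of 0.80 between the treated groups with no overlap. Its 3 lowest values were those of the 3 libraries with over 10% of counts on Rn45s. Gdf15, a stress cytokine, had -1.02 in EnzR exosome + HDL NP against PBS, and Slc7a5 had -0.78.

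Among sensors and regulators, Ern1, which encodes IRE1, was at 51.6, 40.3 and 40.4 CPM in the PBS mice and 39.0, 33.5 and 36.9 CPM in the EnzR exosome mice, all lower (log2 fold change -0.28). Atf6 had a log2 fold change of 0.49 between the treated groups, with no overlap, and its 3 lowest values, 88.2, 46.1 and 77.4 CPM, were those of the 3 libraries with over 10% of counts on Rn45s. Eif2ak2 encodes PKR, the eIF2alpha kinase activated by double-stranded RNA and an interferon-induced gene. It was at 53.3, 63.2 and 61.7 CPM after PBS, 53.8, 93.9 and 63.5 CPM after EnzR exosomes, and 114, 76.7 and 98.1 CPM with HDL NPs, a log2 fold change of 0.70 against PBS (standard error 0.23, adjusted p = 1 by edgeR) with no overlap. Ppp1r15a, which encodes the stress-induced phosphatase subunit GADD34, had -0.59 in EnzR exosome + HDL NP against PBS with no overlap. Over the 12 sensors and regulators tested, the median was -0.15 in EnzR exosome against PBS and 0.15 between the treated groups. Without EnzR exosome replicate 1 these were -0.10 and 0.10, and without the 3 libraries with over 10% of counts on Rn45s they were 0.01 and -0.03. The latter pair of medians rests on EnzR exosome replicate 2 alone in its group.

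In EnzR exosome against PBS the median was 0.13 for the 12 tRNA synthetases, 0.09 for 17 genes of ER-associated degradation and 0.10 for 27 genes of ER import and transport. These became 0.08, 0.06 and 0.12 without EnzR exosome replicate 1, and 0.16, 0.06 and 0.20 without the 2 libraries with the lowest totals. Between the treated groups the medians were -0.18, -0.06 and -0.34, and -0.15, -0.13 and -0.32 without EnzR exosome replicate 1. The serine and cysteine tRNA synthetases Sars and Cars were named by the rule on groups that do not overlap: Sars had -0.27 in EnzR exosome against PBS and Cars 0.26 in EnzR exosome + HDL NP against PBS. By the same rule the leucine enzyme Lars had 0.16 and the degradation factor Derl2 0.18 in EnzR exosome + HDL NP against PBS, the signal peptidase subunit Spcs2 -0.36 and Kdelr2 -0.48. The libraries rich in Rn45s held the 3 highest values of Spcs2, as of Kdelr2, and the 3 lowest of Cars. Srpr, the receptor of the signal recognition particle, had 0.32 between the treated groups, with its 3 lowest values in the libraries rich in Rn45s, and Gpt2 had 0.46. None of the pathway genes named passed the test by edgeR or DESeq2. voom with weights called Fkbp2, Atf5, Slc7a5, Tnfrsf10b, P4hb, Creld2, Spcs2 and Kdelr2 both in EnzR exosome against PBS and between the treated groups, and Slc7a11, Dnajc3 and Pdia6 in the first only.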

How the data were processed

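RNA of CD11b+ marrow cells from 9 mice was sequenced by the authors, who deposited raw counts per gene. The submitters' processing notes name cutadapt 1.13, STAR, HTSeq 0.6.1p1, DESeq2 and the mm10 build. The strand setting of the counting was not given in the sources used here. Herpud1, Hsp90b1 and Dnajb9 may therefore share reads with overlapping genes on the other strand. Hsp90b1 also overlaps Gm15344 and Gm25745 on its own strand. The test was that of edgeR 4.0.16 under R 4.3.3 (TMM, default filter on low counts, robust quasi-likelihood fit to all 9 libraries, Benjamini-Hochberg adjustment, threshold 0.05). DESeq2 1.42.0 and limma 3.58.1 were alternatives, as were other scalings, filters, a replicate block and leaving out libraries. Each of these 2 tools was run with 2 settings: DESeq2 is given with its default independent filtering and limma's voom with robust moderation, and the counts of the other setting are given with the limits. This was settled after both counts had been seen, with counts from earlier work on these data known: DESeq2 by the wording of the plan, voom by the setting run first. The members and lists were chosen with earlier results of these data known. Pathway genes are named where an adjusted p by edgeR or DESeq2 passed (none did) or, per comparison, for up to 5 highest and 5 lowest log2 fold changes among genes whose groups do not overlap; the 5 genes most like each of 4 members are also named, except 2 that are not reported here. Equal replicate numbers of EnzR exosome and PBS deviated together (r = 0.473, 0.492 and 0.131), which the labels do not explain. Within these pairs Atf4, Ddit3 and Herpud1 were lower in EnzR exosome each time, and Trib3, Xbp1, Hspa5 and Hsp90b1 higher. Asns, Chac1 and Dnajb9 went both ways. Trib3 rested on 4, 19 and 21 counts in EnzR exosome and 10, 17 and 37 in PBS. The labels state no pairing, and the share of all genes that kept the same direction in these pairs was not counted. Lengths are unions of exons in GENCODE M21 (GRCm38). Of 14 listed symbols not in the counts, 6 were matched through RefSeq synonyms. Scripts were tested on simulated data. Floors cover counting error only.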

Additional observations from a re-analysis of the deposited data

How the results depend on the processing

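By edgeR, no stress gene among the 10 and no pathway gene passed the test under any alternative scaling, filter, block or left-out library; counts of all genes stayed at 0 except as follows. In EnzR exosome against PBS there was 1 call with no filter and 5 without the 2 libraries of lowest totals. When each library was left out there were 0 to 2 (2 without PBS replicate 1). Leaving out the 3 libraries with over 10% of counts on Rn45s was an alternative chosen after seeing the data. It leaves EnzR exosome replicate 2 as the only mouse of its group, so its calls in comparisons with that group are not given. In EnzR exosome + HDL NP against EnzR exosome there was 1 call with only the 6 libraries compared and 1 without the 2 of lowest totals. When each library was left out there were 0 to 1 (1 without PBS replicate 1). With the replicate number as a block, edgeR called 1, 0 and 0 genes in the 3 comparisons (EnzR exosome against PBS, EnzR exosome + HDL NP against PBS, EnzR exosome + HDL NP against EnzR exosome) and no stress gene among the 10; 6 of the 9 pairs of equal number had deviations with r over 0.1, from -0.175 to 0.492, and the block changed no other call.

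DESeq2 and voom with sample quality weights were each run with 2 settings, and all were seen before the choice was made. DESeq2 called 8, 7 and 1 genes with default filtering, and 14, 2 and 1 with filtering tuned to the threshold, which had been run first. voom called 1972, 8 and 639 genes with robust moderation, which had been run first, and 1990, 10 and 653 without. Either voom setting called 2 of the 10 in the first comparison, Atf4 (-0.54, adjusted p = 0.0158 and 0.0163) and Herpud1 (-0.42, adjusted p = 0.0417 and 0.0416), and 29 or 30 pathway genes there and 15 or 16 between the treated groups. The second settings were added after seeing the data.

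Of 30 log2 fold changes of the 10 genes, 18 kept their direction under all alternatives that gave a value (10 counts in every library left out Ddit3 and Trib3), among them Atf4 and Hspa5 in all 3 comparisons and Hsp90b1 in 2. A kept direction did not mean a kept size. Hsp90b1 ran from -0.4659 to -0.00557 between the treated groups, and Hspa5 from 0.09308 to 0.3654 in EnzR exosome against PBS. The cause of the reversals was not tested. Leaving out each library in turn, ranges that crossed 0 were, in EnzR exosome against PBS, -0.2881 to 0.5966 for Trib3, -0.1843 to 0.5033 for Asns and -0.09938 to 0.7349 for Chac1; in EnzR exosome + HDL NP against PBS, -0.2479 to 0.1617 for Ddit3, -0.2525 to 0.1045 for Chac1, -0.1213 to 0.194 for Hsp90b1 and -0.1838 to 0.01557 for Herpud1; and between the treated groups -0.2854 to 0.4103 for Asns and -0.1719 to 0.14 for Dnajb9. With library size only, Trib3 was -0.01311 in EnzR exosome against PBS, Ddit3 0.01012 in EnzR exosome + HDL NP against PBS and Xbp1 0.06882 between the treated groups; with the replicate block Ddit3 was 0.04817 in EnzR exosome + HDL NP against PBS. With both voom settings Asns was -0.01415 and Dnajb9 -0.09842 between the treated groups. Without the 2 of lowest totals Chac1 was -0.06951 in EnzR exosome against PBS and Asns -0.2883 between the treated groups. Without the 3 high-Rn45s libraries Trib3 was -0.6056 and Chac1 -0.3231 in EnzR exosome against PBS, and Asns -0.484, Chac1 0.2418 and Herpud1 -0.03535 between the treated groups. Values without these libraries rest on EnzR exosome replicate 2 alone in its group. Trib3, the least abundant of the 10, rested on few counts, with 4 in EnzR exosome replicate 1 and 6 in EnzR exosome + HDL NP replicate 1.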
